A study of Rattus norvegicus with 24 samples.

Results

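The rat insulinoma line INS-1 makes and secretes insulin and serves as a beta cell model. The results below describe how the libraries numbered replicate 3 or 4 differed from those numbered replicate 1 or 2, within each treatment and time. All 24 libraries of the series enter, 12 on each side, chosen by the replicate number in their titles alone. Each side holds 2 libraries of each of 6 groups, which are GLP-1 (100 nM), BMS-21 (1 µM) and Control (DMSO vehicle), each at 1 h and at 6 h. Before treatment the cells were kept at 3 mM glucose for 90 min, and medium with 11 mM glucose was then supplied with the treatment. GLP-1, released by the gut, acts on beta cells through a receptor coupled to cAMP, and BMS-21 is known here by its code name only. Because the 6 groups contribute equally to both sides, treatment and time are balanced in the comparison. The labels do not say whether the replicate numbers are separate cultures, passages or days. Each replicate number holds 1 library of each group. Its sample numbers are consecutive, at 1 to 6, 7 to 12, 13 to 18 and 19 to 24 for replicates 1, 2, 3 and 4. Sample numbers run from 1 to 12 for replicates 1 and 2 and from 13 to 24 for replicates 3 and 4, so the sides and the order of these numbers cannot be told apart; the labels do not say what the order stands for.

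Beta cells carry a heavy load of protein folding, because proinsulin is folded in the endoplasmic reticulum (ER). Unfolded protein in the ER activates the sensors Ern1 (IRE1), Atf6 and PERK, which raise ER chaperones and the machinery that removes misfolded protein. Unfolded protein in the cytosol releases the factor HSF1, which raises heat shock chaperones. PERK and sensors of amino acid shortage act through the factor ATF4, in what is called the integrated stress response. A line in culture also differs from one flask to another in how many cells are dividing, which is read from genes of DNA replication and mitosis.

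Library depth did not separate the sides. The libraries held 10667350 to 13148970 reads assigned to genes, with a mean of 12128299 ± 641783 (SD, n = 12) in replicates 1 and 2 and 12026897 ± 516503 (SD, n = 12) in replicates 3 and 4 (exact permutation of the side within groups, two-sided, adjusted p = 0.663 over 4 measures). Fewer genes had at least 1 read in replicates 3 and 4, at 15984 ± 71.1 against 16106 ± 88.0 (SD, n = 12 each, exact permutation adjusted p = 0.00386). The share of reads from the mitochondrial genome was 8.15% ± 0.304 against 8.42% ± 0.252 (SD, n = 12 each, exact permutation adjusted p = 0.0304), and the share taken by the 10 most abundant genes was 10.9% ± 0.288 against 11.3% ± 0.267 (SD, n = 12 each, exact permutation adjusted p = 0.00386). These 3 measures moved with the sides, and their part in the gene differences was not tested. The permutations treat the 12 libraries of a side as separate, although they carry only 2 replicate numbers; a permutation of the 4 numbers themselves cannot give a p below 0.333. Of 19 matched markers of exocrine, duct, stromal, endothelial and immune cells 16 fell under the filter on low values, and Amy2a3, Cela1 and Spp1 had 0 reads in every library. The 3 tested were the keratin gene Krt7, at 554 to 1077 reads, Kdr, at 18 to 72, and Sox9, at 13 to 64. Krt7 was lower in replicates 3 and 4 (log2 -0.17, limma), and its part in other differences was not tested.

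**Figure D1:**
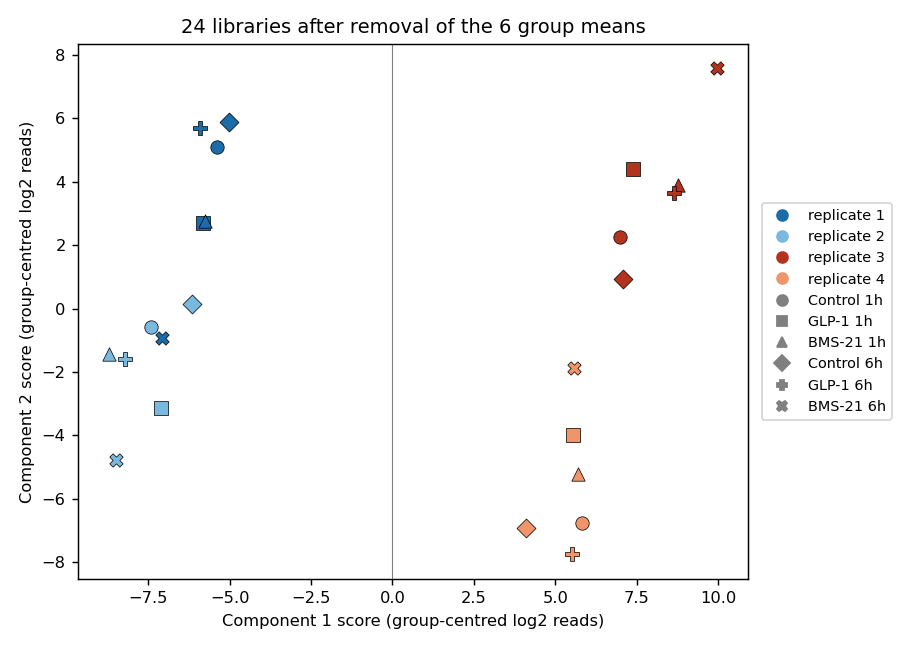
Scores of the 24 libraries on the first component (horizontal axis, 17.1% of the variance) and the second component (vertical axis, 6.83%) of log2 normalised reads of 12690 genes with the 6 group means removed; colour gives the replicate number and shape the group. Replicates 1 and 2 lie between -8.71 and -5.04 on the first component and replicates 3 and 4 between 4.10 and 9.97.

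The 2 sides differed in many genes, each by a small amount. Values are normalised reads (reads divided by a size factor for the library), and differences are log2 of the value plus 1 in replicates 3 and 4 minus that in replicates 1 and 2, with the group as covariate. At a limma adjusted p under 0.05, 2075 of 12690 genes (16.4%) were higher in replicates 3 and 4 and 1728 (13.6%) were lower, 3803 (30.0%) in all. The median size of the log2 difference over all genes was 0.063 and the 95th percentile 0.249. Only 23 genes (0.181%) passed with a difference of at least 1.5-fold, 7 of them higher and 16 lower. In 429 genes (3.38%) the 12 values of one side, with group means removed, did not overlap the 12 of the other, 229 of them higher (1.80%) and 200 lower (1.58%). In 3111 genes (24.5%) the difference had 1 sign in all 6 groups. For scale, other contrasts were taken from the same fit, with 4 libraries against 4. The median size of the log2 difference was 0.063 for GLP-1 and 0.065 for BMS-21, each against Control at 1 h. Against Control at 6 h it was 0.125 for GLP-1 and 0.133 for BMS-21. For Control at 6 h against 1 h it was 0.205. Fewer libraries add noise to such a median, so these sizes are not on equal terms with the 12 against 12 of the sides. When each replicate number was reduced to 1 mean, so that 2 values stood against 2, limma called 2574 genes (20.3%), 1383 higher and 1191 lower. Without the libraries of replicate 2 the counts were 1368 higher and 1099 lower.

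Libraries with different numbers on the same side were compared as well, 6 against 6, so these counts come from fewer libraries than the 12 against 12 above. Between replicates 2 and 1, 15 genes passed (0.118%, limma) and 1045 had an unadjusted p under 0.05. The median size of the log2 difference over all genes was 0.039 and the 95th percentile 0.200. Between replicates 4 and 3, 79 genes passed (0.623%) and 1415 had an unadjusted p under 0.05, with a median size of 0.043 and a 95th percentile of 0.218. Txnip, the gene of a thioredoxin-binding protein, was 0.14 ± 0.02 (SE) higher in replicate 2 than in replicate 1 on the log2 scale, and its relative Arrdc4 was 0.18 ± 0.03 higher. Both are genes that rise with glucose. The immediate early gene Egr1 was lower in replicate 4 than in replicate 3 by 0.35 ± 0.03, and Arrdc3 by 0.33 ± 0.05 (log2 differences -0.35 and -0.33). These counts were sensitive to single libraries. For replicate 2 against 1 they were 57 without BMS-21 6h replicate 1, 24 without BMS-21 6h replicate 4, and 5 to 8 when 1 of these was left out: GLP-1 1h replicates 1 and 2, BMS-21 1h replicates 1 and 2, GLP-1 6h replicate 1 and BMS-21 6h replicate 2. For replicate 4 against 3 they were 135 without BMS-21 6h replicate 4, and 25 to 49 when 1 of these was left out: GLP-1 1h replicates 3 and 4, BMS-21 1h replicates 3 and 4, Control 6h replicate 4 and BMS-21 6h replicate 3.

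Among genes whose sides did not overlap, the 12 largest increases in replicates 3 and 4 were led by Cox6a2, Hsph1 and Ifi27l2b. Genes with overlap are not among the 12, although some had larger differences than most of them, such as Chac1 (0.52) and Hmox1 (0.49). The values given for a gene are its normalised reads with the group means removed and the overall level added back, as the lowest, median and highest of 12 libraries. Cox6a2 (ENSRNOG00000019851), the muscle form of a cytochrome c oxidase subunit, had 55.7, 99.4 and 118 in replicates 1 and 2 and 171, 189 and 254 in replicates 3 and 4. The ranges did not touch, and the log2 difference was 1.05 ± 0.12 (SE, limma adjusted p = 2.3e-06), or 2.07-fold. Within the groups it ran from 0.74 to 1.62, with the lowest reads in BMS-21 6h replicate 2 (33.8 normalised reads before any adjustment). Hsph1 (ENSRNOG00000000902), an HSP110-family chaperone that helps to take protein aggregates apart, had 1754, 1977 and 2176 in replicates 1 and 2 and 2780, 2959 and 3529 in replicates 3 and 4. Its log2 difference was 0.62 ± 0.05 (limma adjusted p = 1.19e-08). Ifi27l2b, an interferon-inducible gene, followed at 0.55 ± 0.05, and Bst2, which encodes the antiviral membrane protein tetherin, at 0.41 ± 0.04. Both lie in families that respond to interferon, but of the 23 tested genes of the interferon list 3 rose and 3 fell, against 16.4% and 13.6% of all genes. Irf7 was lower by 0.22 ± 0.06 (log2 -0.22) and did not pass without replicate 2 (limma adjusted p = 0.0504) or replicate 3 (limma adjusted p = 0.0582).

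The other 8 of the 12 had log2 differences of 0.37 to 0.47. Trib3, a pseudokinase gene activated by ATF4 and DDIT3, had a log2 difference of 0.47 ± 0.08. Slc7a11, the cystine importer, had 0.44 ± 0.07, and Ddit3, which encodes the ER stress factor CHOP, 0.41 ± 0.05. Herpud1, a component of ER-associated degradation, had 0.38 ± 0.06, and Chordc1, a partner of HSP90, 0.37 ± 0.03. Igfbp4, which binds insulin-like growth factors, had 0.47 ± 0.07. Banp, a nuclear DNA-binding protein gene, had 0.45 ± 0.05, and Myc 0.38 ± 0.07. Trib3, Igfbp4, Myc and Herpud1 did not pass with 1 mean per replicate number (limma adjusted p = 0.203, 0.132, 0.135 and 0.114), whereas Hsph1, Chordc1, Banp, Bst2 and Ddit3 did.

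The 12 largest decreases without overlap of the sides were led by Slc18a1, Sez6l and Adamts8. Slc18a1 (ENSRNOG00000011992), the vesicular monoamine transporter that loads amines into granules, had 1014, 1057 and 1189 in replicates 1 and 2 and 635, 693 and 794 in replicates 3 and 4. The ranges did not touch, and the log2 difference was -0.64 ± 0.04 (limma adjusted p = 8.43e-13), or 1.56-fold lower. Sez6l (-0.63 ± 0.08), the netrin receptor gene Dcc (-0.44 ± 0.06) and Lingo4 (-0.57 ± 0.09) encode membrane proteins of neurons. Adamts8 (-0.63 ± 0.07) and Mmp17 (-0.48 ± 0.05) encode metalloproteinases, and Tgm2 (-0.52 ± 0.06) a transglutaminase that crosslinks proteins. Tff3, a secreted trefoil peptide, had 649, 698 and 774 in replicates 1 and 2 and 467, 515 and 551 in replicates 3 and 4, with a log2 difference of -0.47 ± 0.03. Afp (-0.46 ± 0.06) and A1bg (-0.46 ± 0.03) encode plasma proteins of the liver. Ppp1r17 (-0.59 ± 0.07), a phosphatase inhibitor, and Ubd (-0.56 ± 0.07), a ubiquitin-like modifier, complete the 12. All 12 passed also with 1 mean per replicate number.

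**Figure D2:**
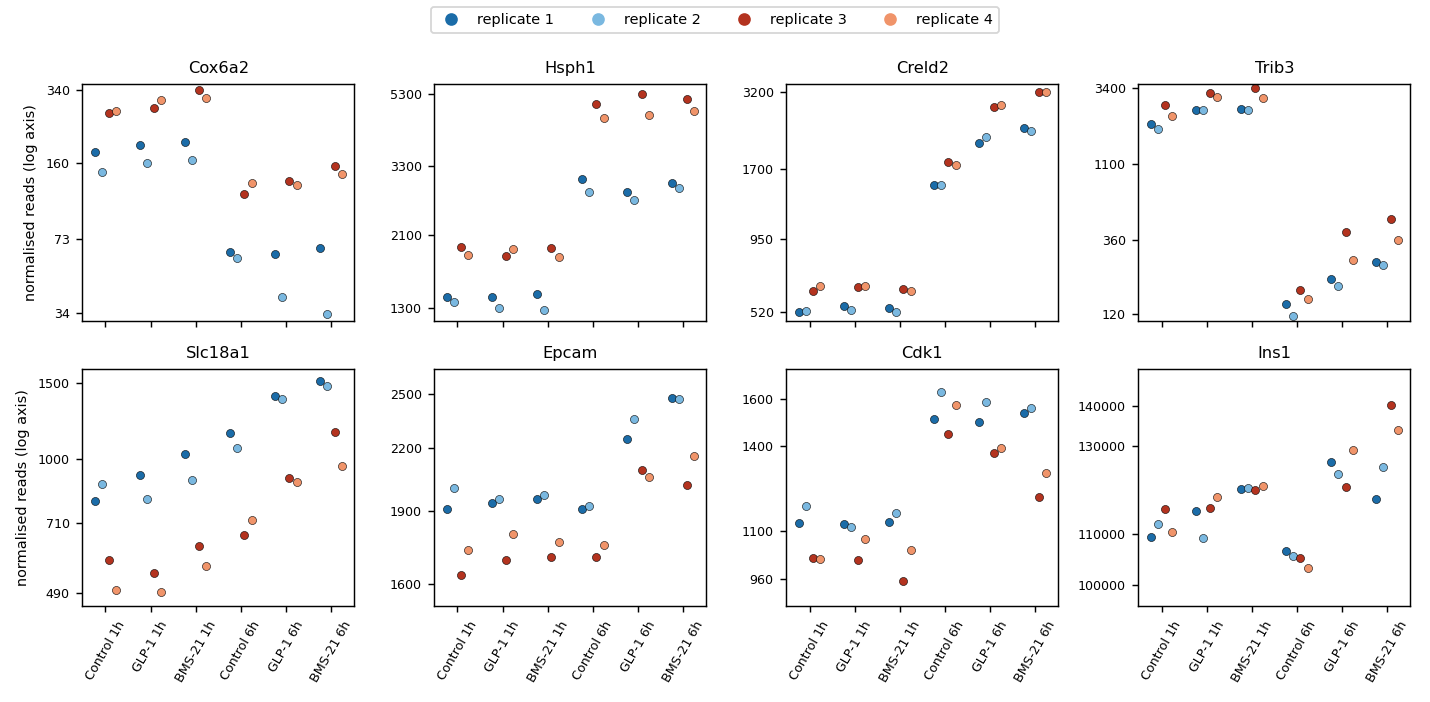
Normalised reads of 8 genes in each library (vertical log axis, a scale for each gene) by treatment and time (horizontal axis), coloured by replicate number. Cox6a2, Hsph1, Creld2 and Trib3 are higher in replicates 3 and 4 and Slc18a1 and Epcam lower in every group, whereas Ins1 shows no common order.

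The chaperones and sensors of the unfolded protein response were higher in replicates 3 and 4 almost throughout. Of 24 genes tested, 21 rose and 0 fell, against 16.4% and 13.6% of all genes, and the median log2 difference was 0.13 against 0.0041 for all genes. In 10 of the 24 the 12 values of the sides did not overlap, all of them higher, against 1.80% of all genes. The medians in the 6 groups ran from 0.086 in GLP-1 1h to 0.218 in GLP-1 6h. Hspa5 (ENSRNOG00000018294), the main ER chaperone BiP, had 30873, 33054 and 35194 in replicates 1 and 2 and 37470, 38444 and 40536 in replicates 3 and 4, a log2 difference of 0.23 ± 0.02 (limma adjusted p = 8.49e-08). Creld2, a secreted ER stress factor, had 957, 1028 and 1063 against 1221, 1251 and 1329, a log2 difference of 0.31 ± 0.02 (limma adjusted p = 1.95e-17). Neither gene's ranges touched.

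Among the other members, some that lead misfolded protein out of the ER rose with the chaperones. Herpud1 (0.38 ± 0.06) and Sel1l (0.21 ± 0.02) belong to ER-associated degradation, and Dnajb9 (0.36 ± 0.03) and Dnajc3 (0.24 ± 0.03) are co-chaperones of BiP. Hyou1 (0.23 ± 0.02), Sdf2l1 (0.22 ± 0.04), Manf (0.19 ± 0.02) and Hsp90b1 (0.17 ± 0.02) are further ER-resident folding factors. The sensors and factors rose too, with Ern1 at 0.16 ± 0.03, Atf6 at 0.13 ± 0.02 and Xbp1 at 0.11 ± 0.02. The disulfide isomerase P4hb (0.051 ± 0.014) was the smallest increase that passed. Calr, the lectin chaperone calreticulin, had 0.060 ± 0.025 (limma adjusted p = 0.0818), Vimp 0.036 and the oxidase gene Ero1l -0.0039, none of them past the threshold. With 1 mean per replicate number 18 of the 24 rose. The list also moved within a side, with a median log2 difference of -0.053 and 3 members called for replicate 2 against 1 (Calr and Hyou1, both lower, among them), and a median of -0.030 with 0 called for replicate 4 against 3.

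Promoter sequence was read for the members because so many of them moved together. The RefSeq promoter table (build GRCr8) held a single entry for 15 of the 24 genes, and the 250 bases before each start site were searched on both strands. The ER stress response element was searched as CCAAT followed after any 9 bases by CCACG. It was present in 7 of the 15 promoters (46.7%) and in 18 of all 24206 (0.074%). Holders and non-holders had like differences between the sides, with median log2 values of 0.17 (n = 7) and 0.17 (n = 8). Calr holds the element and did not pass the test. The promoters of Hspa5 (chr3:38452766-38453015, plus strand) and Creld2 (chr7:121789134-121789383, plus strand) are shown as the main ER chaperone and the member with the smallest p, with the element in capitals. In Hspa5 it starts 43 bases before the start site, and in Creld2 it starts 145 bases before and reads on the opposite strand.
Hspa5: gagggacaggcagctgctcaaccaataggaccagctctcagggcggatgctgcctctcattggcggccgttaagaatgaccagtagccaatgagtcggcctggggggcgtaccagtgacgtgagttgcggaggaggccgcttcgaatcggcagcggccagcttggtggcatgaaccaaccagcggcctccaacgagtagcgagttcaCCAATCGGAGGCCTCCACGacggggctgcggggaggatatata
Creld2: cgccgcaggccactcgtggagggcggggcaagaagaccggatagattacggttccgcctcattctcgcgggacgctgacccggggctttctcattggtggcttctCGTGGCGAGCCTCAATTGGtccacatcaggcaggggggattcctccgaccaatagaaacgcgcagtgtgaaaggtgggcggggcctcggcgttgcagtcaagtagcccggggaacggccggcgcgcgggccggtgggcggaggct

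Heat shock chaperones of the cytosol and mitochondria rose as well. Of 14 genes tested, 12 rose and 1 fell, against 16.4% and 13.6% of all genes, and the median log2 difference was 0.14. In 5 of the 14, all higher, the sides did not overlap, against 1.80% of all genes. Hsph1 and Chordc1 led, followed by Ahsa1 (0.21 ± 0.03), which activates the ATPase of HSP90, by the heat shock factor gene Hsf1 (0.19 ± 0.03) and by Hspa4l (0.17 ± 0.02). The mitochondrial chaperonin genes Hspd1 and Hspe1 rose by 0.15 ± 0.03 and 0.11 ± 0.02, and the abundant HSP90 gene Hsp90ab1 by 0.13 ± 0.02. Dnajb4 fell by 0.10 ± 0.03 (log2 -0.10), and the co-chaperone gene Bag3 had -0.032 ± 0.027 (limma adjusted p = 0.395). With 1 mean per replicate number 11 rose. Within a side the list did not separate the numbers, with median log2 differences of -0.015 for replicate 2 against 1 and -0.0070 for replicate 4 against 3.

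The heat shock element was searched as GAA, TTC and GAA with any 2 bases between neighbours, in the same window of 250 bases, on both strands. It was present in 3 of 12 promoters of the list (25.0%), those of Hsph1, Hspd1 and Hspe1, and in 136 of all 24206 (0.562%). Matches began 242 and 237 bases before the start in Hspd1 and 65 and 60 in Hspe1. Whether these 2 promoters share the same bases was not tested. The median log2 difference was 0.15 for the holders (n = 3) and 0.13 for the others (n = 9). The promoter of Hsph1 (chr12:10427118-10427367, plus strand, GRCr8) is shown because this gene had the largest difference of the list. The element, in capitals, starts 36 bases before the start site and reads on the opposite strand.
Hsph1: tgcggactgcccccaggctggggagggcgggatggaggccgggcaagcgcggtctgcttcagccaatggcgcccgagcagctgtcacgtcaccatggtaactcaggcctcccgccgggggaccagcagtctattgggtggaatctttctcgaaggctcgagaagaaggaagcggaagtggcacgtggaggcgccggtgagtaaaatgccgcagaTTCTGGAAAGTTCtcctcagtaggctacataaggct

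The integrated stress response and amino acid supply rose in most members, in 16 of 23 tested (69.6%, against 16.4% of all genes), and fell in 2 (8.70%, against 13.6%). The median log2 difference was 0.12. Chac1, which degrades glutathione, had the largest value but a wide spread, with 96.2, 132 and 156 in replicates 1 and 2 and 137, 181 and 340 in replicates 3 and 4. The ranges overlapped, and the log2 difference was 0.52 ± 0.14 (limma adjusted p = 0.00983). Atf3 (0.33 ± 0.05), Cth (0.32 ± 0.08), the mTOR inhibitor gene Ddit4 (0.25 ± 0.09) and the phosphatase subunit gene Ppp1r15a (0.19 ± 0.04), which ends the response, rose. Vldlr, a lipoprotein receptor, rose by 0.21 ± 0.02 without overlap. Atf4 itself rose by 0.043 ± 0.017. The amino acid transporters were divided, with Slc7a1 (0.12 ± 0.02), Slc38a2 (0.11 ± 0.02) and Slc3a2 (0.10 ± 0.02) higher and Slc7a5 lower (-0.071 ± 0.019). Genes of serine and asparagine synthesis did not pass as higher: Psph fell (-0.067 ± 0.023), and Asns (-0.041) and Psat1 (0.0077) did not pass. Shmt2 (0.0064) did not pass either. Of the members, 4 differed between replicates 4 and 3 (median log2 difference -0.060), and with 1 mean per replicate number 11 of the 23 rose, Chac1 not among them (limma adjusted p = 0.389).

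For the composite site bound by ATF4 the exact sequence TGATGCAA was searched on both strands. This sequence was present in 1 of 20 promoters of the list (5.0%), that of Chac1, and in 155 of all 24206 (0.64%). Other forms of the site were not searched, so the other promoters may hold one, and the share of the list rests on 1 gene. The match is shown in capitals, on the opposite strand, in the promoter of the member with the largest difference (chr3:126795881-126796130, plus strand, GRCr8).
Chac1: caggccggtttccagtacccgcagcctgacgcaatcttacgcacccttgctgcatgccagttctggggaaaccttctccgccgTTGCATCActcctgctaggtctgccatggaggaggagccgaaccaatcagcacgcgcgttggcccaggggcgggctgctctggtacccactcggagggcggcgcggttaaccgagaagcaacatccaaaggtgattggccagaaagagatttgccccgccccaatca

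The cytosolic aminoacyl-tRNA synthetases, which charge tRNAs for translation and include ATF4 targets, rose in 10 of 20 and fell in 0, against 16.4% and 13.6% of all genes, with a median log2 difference of 0.042. Lars (0.13 ± 0.02), Vars (0.13 ± 0.02) and Mars (0.12 ± 0.02) rose most. Gars (-0.026 ± 0.015) and Dars (-0.027 ± 0.017) did not pass. With 1 mean per replicate number 7 of the 20 rose. Cytosolic ribosomal protein genes, by contrast, had a median of 0.0054, led by Rplp0 (0.11 ± 0.01) and Rpl24 (-0.11 ± 0.02). Of the 23 tested, 4 were higher and 1 lower (17.4% and 4.35%, against 16.4% and 13.6% of all genes).

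**Figure D3:**
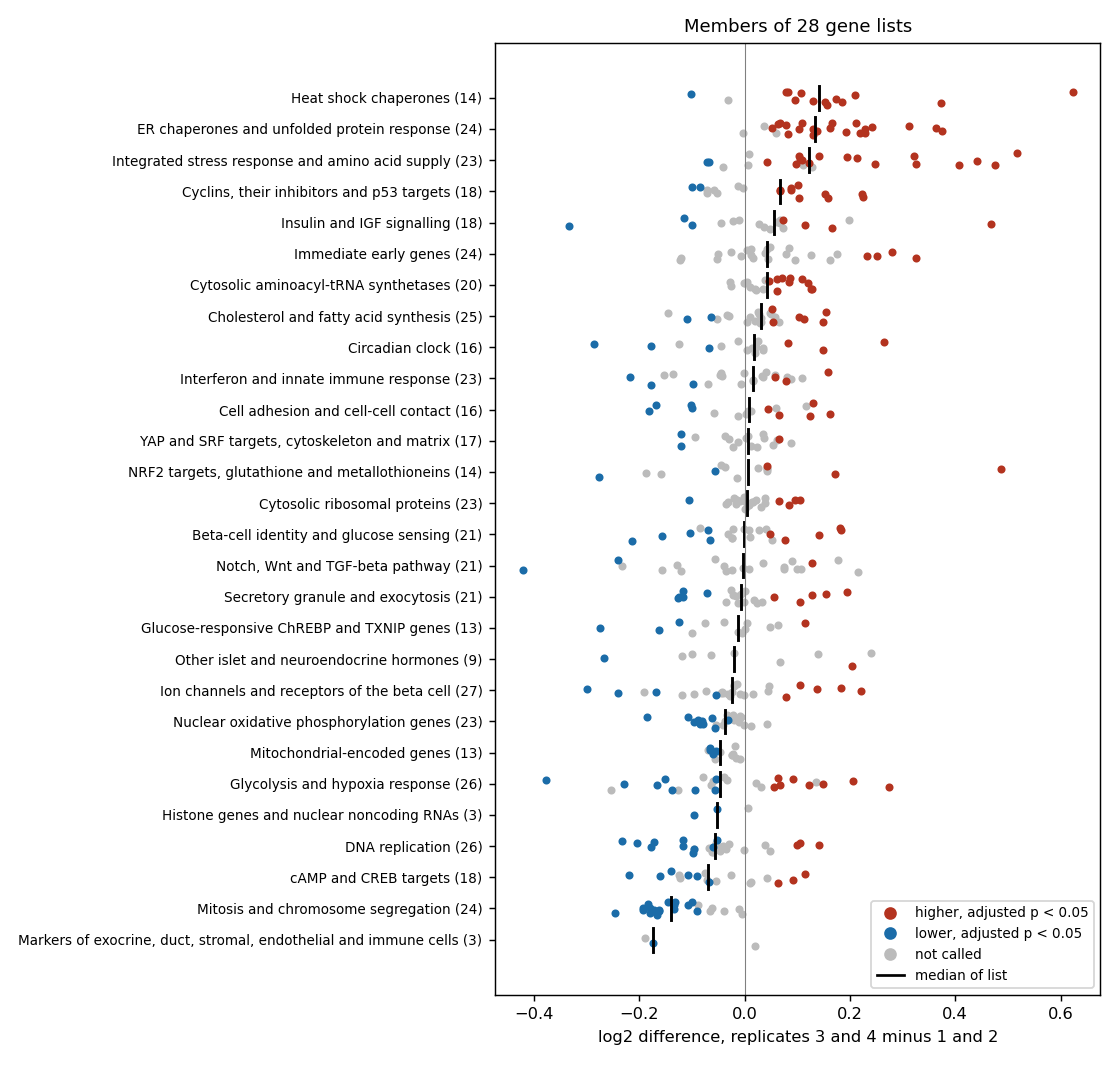
Log2 difference of each tested member of 28 gene lists (horizontal axis, replicates 3 and 4 minus 1 and 2; each row a list with its number of genes tested), with black bars for the list medians and colour for the limma call. The heat shock, ER chaperone and integrated stress response lists have medians of 0.14, 0.13 and 0.12 and mitosis -0.14.

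Genes of mitosis were lower in replicates 3 and 4. Of 24 tested, 0 rose and 18 fell, against 13.6% of all genes, with a median log2 difference of -0.14. The values were small and the ranges overlapped in all but 1 gene, Nusap1. Cdk1, the kinase that starts mitosis, had 1233, 1329 and 1406 in replicates 1 and 2 and 1091, 1180 and 1285 in replicates 3 and 4, a log2 difference of -0.17 ± 0.02 (limma adjusted p = 8.11e-08). Birc5 (survivin) had the largest decrease (-0.25 ± 0.04), and the cyclin genes Ccna2 (-0.19 ± 0.04) and Ccnb1 (-0.18 ± 0.03) and the spindle gene Nusap1 (-0.16 ± 0.02) fell too. Mki67, the common marker of dividing cells, was at -0.012 ± 0.021 (limma adjusted p = 0.718), and Ncapg at -0.0050. The group medians ran from -0.077 in Control 1h to -0.298 in BMS-21 6h. The numbers within a side differed as well, although no member passed there: the list's median was 0.075 for replicate 2 against 1 and 0.047 for replicate 4 against 3. Without replicate 2 the number of genes that fell was 10, and without replicate 1 it was 21. In bulk RNA fewer dividing cells and less transcript per dividing cell cannot be told apart.

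The cell cycle homology region, searched as TTTGAA on both strands in the 250 bases before the start, was present in 9 of 20 promoters of mitosis genes (45.0%) and in 3899 of all 24206 (16.1%). The median log2 difference was -0.17 for the 9 holders and -0.13 for the other 11, and Mki67 and Ncapg are among the holders. The promoter of Birc5 (chr10:103571896-103572145, plus strand, GRCr8), the member with the largest decrease, holds it 8 bases before the start site.
Birc5: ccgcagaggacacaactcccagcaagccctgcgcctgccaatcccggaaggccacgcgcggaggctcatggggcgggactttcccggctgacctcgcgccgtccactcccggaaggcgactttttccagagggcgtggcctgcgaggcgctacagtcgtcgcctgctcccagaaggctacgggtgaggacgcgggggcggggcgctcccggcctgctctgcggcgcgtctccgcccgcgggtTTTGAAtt

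DNA replication genes were mixed, with 10 of 26 lower (38.5%, against 13.6% of all genes) and 3 higher (11.5%, against 16.4%) and a median log2 difference of -0.057. Among those that fell were thymidine kinase Tk1 (-0.23 ± 0.03), the helicase component Cdc45 (-0.17 ± 0.04) and Mcm7 (-0.10 ± 0.02). Cdc6 (0.14 ± 0.04), Pola1 (0.11 ± 0.03) and Tyms (0.10 ± 0.03) rose. Pcna was at -0.030 ± 0.019 and did not pass. The median of the replication list was -0.091 at 1 h and -0.027 at 6 h, with 0.017 in Control 6h. With the 1 h libraries alone 13 members were lower, and with the 6 h libraries alone 5. In the contrast of 6 h with 1 h 0 members passed (limma). Cyclins, their inhibitors and p53 targets rose in 10 of 18 and fell in 2, against 16.4% and 13.6% of all genes, with a median of 0.067. Cdkn1a, the p53-induced inhibitor p21, had 729, 792 and 831 in replicates 1 and 2 and 858, 933 and 952 in replicates 3 and 4, with no overlap, a log2 difference of 0.23 ± 0.02 (limma adjusted p = 3.42e-11). Tp53inp1 (0.22 ± 0.06), Phlda3 (0.16 ± 0.03) and Mdm2 (0.10 ± 0.02) are further p53 targets that rose, as did the inhibitor gene Cdkn1b (0.088 ± 0.020). Btg2 and Gadd45a did not pass, nor did Ccnd1 (-0.072), which passed without replicate 2 (-0.17, limma adjusted p = 0.0366). Sesn2 stands both in this list and in that of the integrated stress response.

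Nuclear genes of oxidative phosphorylation fell in 10 of 23 (43.5%, against 13.6% of all genes) and rose in 0, with a median log2 difference of -0.037. Ndufa4 had the largest decrease (-0.18 ± 0.02, limma adjusted p = 1.52e-10, no overlap), and Uqcrfs1 (-0.089 ± 0.017) and Cox4i1 (-0.085 ± 0.018) fell by less. The count was 6 with 1 mean per replicate number, 6 without replicate 2 and 4 without replicate 3. Of the 13 tested genes of the mitochondrial genome 4 fell (30.8%, against 13.6% of all genes) and 0 rose. COX1 (-0.061 ± 0.014) was among those that fell. With 1 mean per replicate number 1 gene fell, and COX1 did not pass (limma adjusted p = 0.0814). With the Control libraries alone COX1 was at -0.033 (limma adjusted p = 0.226). The medians of these 13 genes in the groups ran from -0.086 in GLP-1 1h to 0.00083 in Control 1h. Cox6a2, which is not in the list, moved the other way. Glycolysis and hypoxia genes were divided, with 8 of 26 higher and 8 lower (30.8% each, against 16.4% and 13.6% of all genes). The enzyme genes Eno1 (-0.14 ± 0.01), Gpi (-0.093 ± 0.025) and Aldoc (-0.38 ± 0.08) fell, as did Pdk1 (-0.15 ± 0.03), while the glucose transporter Slc2a1 (0.21 ± 0.06) and the demethylase gene Kdm3a (0.27 ± 0.04) rose. The difference of Aldoc depended on time, at -0.66 at 1 h and -0.097 at 6 h (change 0.56 ± 0.14, limma adjusted p = 0.0473). The glucose-sensing factor gene Mlxipl (ChREBP, -0.12 ± 0.02) and its target Pklr (-0.16 ± 0.02) fell, as did Gpd1 (-0.28 ± 0.04), all without overlap of the sides. Of the 13 tested genes of the glucose-responsive list, 3 were lower (23.1%, against 13.6%) and 1 higher (7.69%, against 16.4%). Its median was -0.013, and sides that did not overlap, lower, were found in 1.58% of all genes. Txnip (0.047, limma adjusted p = 0.270) and Arrdc4 (-0.039, limma adjusted p = 0.309) did not pass between the sides.

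Genes of beta cell identity showed no common direction. Of 21 tested, 5 rose and 5 fell (23.8% each, against 16.4% and 13.6% of all genes), and the median log2 difference was -0.0017. Ins1, the main insulin gene of the rat, had 106860, 117159 and 118741 in replicates 1 and 2 and 113117, 118045 and 127709 in replicates 3 and 4. The ranges overlapped, and the log2 difference was 0.040 ± 0.021 (limma adjusted p = 0.171). Ins2 was 0.18 ± 0.05 higher (limma adjusted p = 0.00932), from 0.0080 to 0.48 within the groups, and did not pass without replicate 2 (0.17, limma adjusted p = 0.124). Reads shared by the insulin paralogs cannot be assigned with certainty. Iapp, the amyloid peptide secreted with insulin, fell by 0.21 ± 0.03 (log2 -0.21).

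The factors of the beta cell moved by small amounts in both directions. Rfx6 (0.18 ± 0.03) and Neurod1 (0.14 ± 0.04) rose, and Nkx6-1 (-0.16 ± 0.03) and Hnf4a (-0.10 ± 0.03) fell. Pdx1 (-0.066 ± 0.021) passed with 12 libraries a side but not with 1 mean per replicate number (limma adjusted p = 0.0752), nor without replicate 1 (-0.043, limma adjusted p = 0.224) or replicate 4 (-0.042, limma adjusted p = 0.185). Mafa (0.052 ± 0.065) and the glucose transporter Slc2a2 (-0.032 ± 0.016) did not pass, although Slc2a2 passed without replicate 1 (-0.063, limma adjusted p = 0.00558), replicate 4 (-0.066, limma adjusted p = 0.00103) or GLP-1 6h replicate 1 (-0.040, limma adjusted p = 0.0401). Glp1r, the receptor of GLP-1, had 1525, 1553 and 1653 in replicates 1 and 2 and 1599, 1659 and 1693 in replicates 3 and 4. The ranges overlapped, with a log2 difference of 0.077 ± 0.019 (limma adjusted p = 0.000847). Without replicate 1 the Glp1r difference was 0.061 and did not pass (limma adjusted p = 0.0510). Sst, the hormone of delta cells, had 0 or 1 read in every library, and the alpha cell hormone gene Gcg did not pass (-0.12 ± 0.06). With the 6 h libraries alone Gcg passed (-0.30, limma adjusted p = 0.00497).

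Secretory granule and exocytosis genes were likewise divided, with 5 of 21 higher and 5 lower (23.8% each, against 16.4% and 13.6% of all genes). The sides did not overlap in 3 members that were higher and 3 that were lower, against 1.80% and 1.58% of all genes. Chgb, the granin of the granule core, fell by 0.12 ± 0.02 (log2 -0.12), as did the granule membrane protein gene Ptprn2 (-0.12 ± 0.01) and the calcium sensor gene Syt7 (-0.13 ± 0.02). Unc13a, which primes vesicles, rose by 0.20 ± 0.02, and Syt4 and Scg3 by 0.15 ± 0.02 and 0.13 ± 0.02. Of the ion channels and receptors 5 of 27 were higher (18.5%) and 4 lower (14.8%), near the 16.4% and 13.6% of all genes. The median was -0.025. The calcium channel genes Cacna1d (0.11 ± 0.02) and Cacnb2 (0.22 ± 0.03) rose without overlap of the sides. Adhesion genes had no common direction, with 5 of 16 higher and 4 lower, against 16.4% and 13.6% of all genes. Their median was 0.0089. The adhesion molecule gene Epcam (-0.18 ± 0.02) and E-cadherin Cdh1 (-0.17 ± 0.02) fell, and N-cadherin Cdh2 (0.16 ± 0.02) and the tight junction gene Tjp1 (0.12) rose. Epcam had 2011, 2073 and 2161 in replicates 1 and 2 and 1735, 1850 and 1909 in replicates 3 and 4, with no overlap.

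Several other lists had members in both directions, and their counts stand beside 16.4% of all genes higher and 13.6% lower. Of the immediate early genes 4 of 24 rose (16.7%, near the share of all genes) and 0 fell. Those that rose were Atf3, Ier2, Klf6 and Jun, while Fos (0.012 ± 0.053) and Nr4a1 (0.012) did not pass. Klf6 lost its call without replicate 3 (0.14, limma adjusted p = 0.114). Among targets of cAMP and CREB, the pathway of GLP-1, 3 of 18 rose and 6 fell (33.3%, against 13.6% of all genes), with Irs2 at 0.11 ± 0.02 and the phosphodiesterase gene Pde4d at -0.16 ± 0.04. Cholesterol and fatty acid synthesis had 6 of 25 higher and 2 lower, with Msmo1 at 0.15 ± 0.02 and Acaca at -0.11 ± 0.02. Of the NRF2 targets 3 of 14 rose and 2 fell, with heme oxygenase Hmox1 at 0.49 ± 0.08 and Gstm1 at -0.28 ± 0.06. The difference of Hmox1 was 0.24 at 1 h and 0.73 at 6 h (change 0.49 ± 0.12, limma adjusted p = 0.0379), and with the 1 h libraries alone it did not pass (limma adjusted p = 0.0752). The clock genes had 3 of 16 higher and 3 lower, with Nr1d1 at 0.27 ± 0.05 and Cry2 at -0.29 ± 0.06, and Cry2 did not pass with 1 mean per replicate number (limma adjusted p = 0.224).

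The difference between the sides depended on time for some genes, heat shock chaperones among them. The interaction of side and group over the 6 groups (limma F test, 5 degrees of freedom) passed in 16 genes (0.126%). A contrast of the difference at 6 h with that at 1 h, averaged over the treatments and chosen after that test was seen, passed in 64 genes (0.504%), 44 higher at 6 h (0.347%) and 20 lower (0.158%). Of the heat shock list, 6 of 14 members were in the first set and 0 in the second, and the median difference between the sides was 0.069 at 1 h and 0.204 at 6 h. At 1 h Hsp90ab1 had 30015 to 32188 normalised reads in replicates 1 and 2 and 31274 to 32205 in replicates 3 and 4, which overlap. At 6 h it had 36407 to 39815 and 43651 to 45848, which do not. Its difference between the sides was 0.041 at 1 h and 0.218 at 6 h (change 0.18 ± 0.02, limma adjusted p = 2.04e-06).

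The remaining heat shock genes with a larger difference at 6 h were Hspd1 (change 0.20 ± 0.03), Dnaja1 (0.19 ± 0.03), Hsph1 (0.31 ± 0.05), Fkbp4 (0.15 ± 0.03) and Bag3 (0.21 ± 0.05, from below 0 at 1 h to above 0 at 6 h). ENSRNOG00000007219, which has no symbol in the tables, had the smallest p. At 1 h it had 15940 to 17562 normalised reads in replicates 1 and 2 and 15505 to 16960 in replicates 3 and 4, which overlap. At 6 h it had 22690 to 26357 and 29123 to 32321, which do not (change 0.34 ± 0.03, limma adjusted p = 2.11e-10). The inhibitor-of-differentiation genes Id1 (0.33 ± 0.05), Id2 (0.38 ± 0.07) and Id3 (0.35 ± 0.05) changed sign in the mean over the treatments. Their mean differences between the sides were -0.16, -0.15 and -0.30 at 1 h and 0.17, 0.22 and 0.052 at 6 h. For Id3 the sign did not change in Control, as the 6 h differences were -0.098 in Control, 0.078 in GLP-1 and 0.175 in BMS-21. The ER genes Dnajb9 (0.22 ± 0.05) and Pdia4 (0.17 ± 0.04) and the cystine importer Slc7a11 (0.46 ± 0.09) had larger differences at 6 h. Arhgef2, a microtubule-bound exchange factor gene, had group differences of 0.37 to 0.46 at 1 h and -0.11 to 0.17 at 6 h (change -0.39 ± 0.07, limma adjusted p = 0.00103). In this contrast no mitosis gene passed (limma), and the list's median was -0.093 at 1 h and -0.177 at 6 h.

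**Figure D4:**
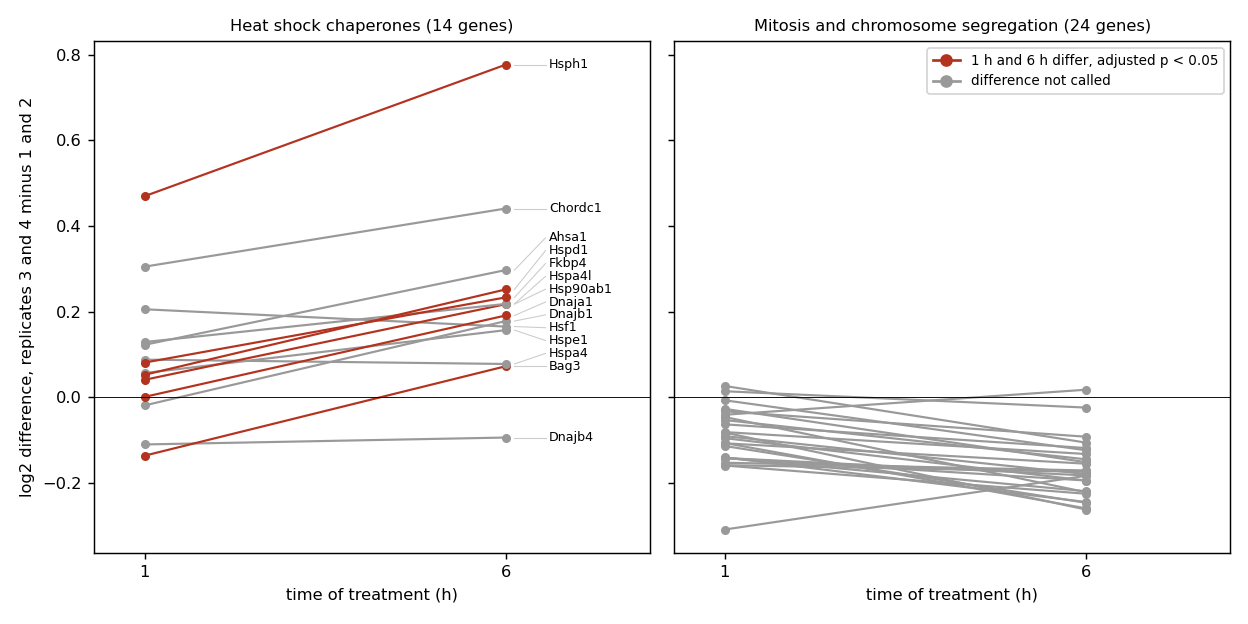
Log2 difference between replicates 3 and 4 and replicates 1 and 2 at 1 h and at 6 h of treatment (horizontal axis, h), a line for each gene of the heat shock and mitosis lists, red where the change between the times passed limma. Of the heat shock genes 6 of 14 pass, and their median goes from 0.069 to 0.204; no mitosis gene passes.

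Whether the responses to the agents differed between the sides was tested by the same interaction. The contrast of agent against Control, in replicates 3 and 4 minus replicates 1 and 2, passed in 0 genes for GLP-1 at 1 h, BMS-21 at 1 h and GLP-1 at 6 h (limma; 638, 531 and 664 genes had an unadjusted p under 0.05, and edgeR called 0 in each). For BMS-21 at 6 h 1 gene passed (0.00788%), and 1432 had an unadjusted p under 0.05. This gene was Epha8, an ephrin receptor, whose difference between the sides was -0.21 in Control 6h and 0.33 in BMS-21 6h (change 0.54 ± 0.10, limma adjusted p = 0.00771). In BMS-21 6h it had 712 and 720 normalised reads in replicates 1 and 2 and 930.5 and 868 in replicates 3 and 4. For Control at 6 h against 1 h 3 genes passed (0.0236%), ENSRNOG00000007219, Hspd1 and Btg2. The counts depended on whether the replicate number entered the fit. With that number as a block, 122 genes passed for BMS-21 at 6 h and 5 for GLP-1 at 6 h. Under the block 0 passed for either agent at 1 h, 11 for Control at 6 h against 1 h and 141 in the F test. The counts without the block rested on single libraries. The F test gave 33 genes without BMS-21 6h replicate 4, 32 without BMS-21 1h replicate 4, 30 without Control 1h replicate 3 or replicate 4, 10 without Control 6h replicate 1 and 9 without Control 6h replicate 3. The BMS-21 6h contrast ran from 0 without Control 6h replicate 1 or 4 to 35 without BMS-21 6h replicate 4, and omission of 20 of the 24 libraries moved it by more than 1.5 times. The genes higher at 6 h over all treatments were 27 without either GLP-1 6h replicate 2 or Control 1h replicate 1, 28 without BMS-21 6h replicate 1 and 29 without Control 6h replicate 1. Those lower at 6 h were 10 without BMS-21 1h replicate 2, 11 without GLP-1 1h replicate 4 or Control 6h replicate 1 and 12 without Control 6h replicate 4.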

How the data were processed

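INS-1 RNA was read from 24 TruSeq v2 libraries, a kit that does not mark strand, so reads of a gene and its antisense partner cannot be told apart. The submitters' processing notes name TopHat2 2.0.12, Bowtie2 2.2.3.0, SAMtools 0.1.19.0, Subread, DESeq and DESeq2 1.6.3 and the rat build Rnor_5.0, with no role for each. The deposited tables hold the authors' normalised read counts, a signal scaled by library, for 26404 genes. Each library's values were whole multiples of 1 step (100.0% of values up to 500 reads within 0.001), which gave back its reads; 0 values differed between the 2 tables that hold it. No per-sample column was left unused.

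Reads were normalised together by median-of-ratios size factors over 24 libraries, and log2 of the value plus 1 was fitted with limma 3.58.1 (trend and robust, R 4.3.3) with terms for the 6 groups and for the side, in 12690 genes with a mean of at least 10. The Benjamini-Hochberg adjusted p threshold was 0.05 over all genes. On the recovered reads, edgeR 4.0.16 called 2027 genes higher and 1779 lower, and DESeq2 1.42.0 1706 and 1428. Scripts were tested on simulated data. The p-values measure the spread between these libraries, which may be technical, since the labels do not name separate cultures. No pair of libraries of a group was a duplicate (ratio of chi-squared to degrees of freedom 1.28 to 5.20, 36 pairs). The members and the 28 gene lists (715 genes, 602 matched) were chosen with earlier results of these data known.

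Genes were named by a rule: the 12 largest increases and 12 largest decreases past the threshold (no overlap of the sides, official symbols, mean of 50 or more); in each list, at most 2 called members, those of smallest adjusted p; Ins1, Ins2, Pdx1, Mafa, Nkx6-1, Slc2a2, Glp1r, Gcg, Sst, Mki67, Ccnd1, Txnip and Fos; and up to 3 genes for each interaction contrast. Some genes that the rule names are not reported here. Other list members and the genes within a side were named after their values were seen. The contrast of 6 h with 1 h over all treatments, the fit without Control, the fit of means with library totals and the alternatives for differences within a side were chosen after seeing the data. Alternatives were pseudocounts, filters, scalings, tools, a replicate block, means per replicate number, subsets of libraries and leaving out each library or replicate number.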

Additional observations from a re-analysis of the deposited data

Results flagged for a closer look

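The difference between the sides changed with time or treatment, by a test of the change itself, in the genes that follow, as the log2 difference at 6 h minus that at 1 h over the 3 treatments. The counts were 44 genes higher at 6 h and 20 lower (limma). Among heat shock chaperones the changes were 0.31 in Hsph1, 0.21 in Bag3, 0.20 in Hspd1, 0.19 in Dnaja1, 0.18 in Hsp90ab1 and 0.15 in Fkbp4. Among ER and amino acid genes they were 0.46 in Slc7a11, 0.22 in Dnajb9, 0.17 in Pdia4, -0.12 in Slc7a5 and -0.15 in Asns. Other genes with a positive change were Id3 (0.35), ENSRNOG00000007219 (0.34), Net1 (0.30), Tes (0.29), Ccrn4l (0.28), Btg2 (0.26), Ccdc86 (0.25) and Shc2 (0.17). Those with a negative change were Arhgef2 (-0.39), Tenm4 (-0.35) and Bcam (-0.20). Epha8 differed between BMS-21 6h and Control 6h by 0.54.

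A library far from the others was looked for in 204 sets of 4 or 6 libraries, by the gap to its neighbour relative to the range, a rule that chance meets in about 1 set in 20. It was met in 8 sets. On the group-centred log2 scale, among the 6 libraries of a replicate number, the values apart were 0.34 for Chordc1 in Control 6h replicate 4, -0.44 for Sez6l in Control 1h replicate 3, 0.00087 for Dcc in GLP-1 6h replicate 1 and -0.13 for Ins1 in BMS-21 6h replicate 1. Slc2a2 had -0.048 in BMS-21 6h replicate 4, Gcg 0.32 in BMS-21 6h replicate 2 and Ccnd1 0.20 in Control 6h replicate 3. The mean of the aminoacyl-tRNA synthetase list was 0.033 in Control 1h replicate 4.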

How the results depend on the processing

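Under a pseudocount of 0.5 or 5, a minimum mean of 50, no filter, TMM factors, library totals, edgeR and DESeq2, the counts of genes higher and lower stayed within 1.5 times, as did the list counts, and all 115 named values kept direction and call. With 1 mean per replicate number 1383 genes were higher and 6 oxidative phosphorylation genes lower; with library totals as well, 1247 genes, 6 synthetase genes and 6 cyclin and p53 genes were higher, and 12 and 11 of the 115 named values lost their call. A minimum of 1.5-fold left 7 higher, 16 lower, 1 heat shock gene and 0 in each other list. With the 1 h libraries only the counts were 1157 higher and 1072 lower, with 13 ER, 7 heat shock and 9 mitosis genes. With the 6 h libraries only they were 1130 and 1041, with 9 integrated stress response genes and 5 each for cyclins, DNA replication and oxidative phosphorylation. With the Control libraries only they were 784 and 593, with 10 integrated stress response, 6 synthetase, 4 cyclin, 6 mitosis, 2 DNA replication and 2 oxidative phosphorylation genes, and Fn1 reversed to -0.0044. These subsets hold fewer libraries.

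Leaving out 1 library or 1 replicate number gave 1368 to 2056 genes higher and 1099 to 1710 lower. The ranges were 17 to 23 for ER, 9 to 12 for heat shock, 13 to 16 for the integrated stress response, 7 to 10 for synthetases, 7 to 10 for cyclins, 10 to 21 for mitosis, 7 to 12 for DNA replication and 4 to 11 for oxidative phosphorylation. For the dependence on group they were 0 to 1 (GLP-1 1h and BMS-21 1h), 0 to 3 (GLP-1 6h), 0 to 35 (BMS-21 6h), 1 to 7 (Control 6h against 1h), 27 to 47 and 10 to 25 (higher and lower at 6 h) and 9 to 33 (F test), and within a side 5 to 57 and 25 to 135. The BMS-21 6h count was 2 with edgeR, 5 with a pseudocount of 5 and 5 with a mean of at least 50; the cause was not tested.

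The replicate numbers were not taken as a pairing: libraries with the same number correlated at 0.047 to 0.242 over 60 pairs after group means were removed, not all above 0.1. All 24 libraries correlated best with their own number. The consecutive sample numbers also set each replicate number apart as a full set of the 6 groups. The labels do not say what a replicate number stands for. With the replicate number as a block, 1949 genes were higher and 1626 lower, and the dependence on group passed in 5 genes for GLP-1 6h, 122 for BMS-21 6h (67 higher and 55 lower, with 6 of the 24 mitosis genes among the latter), 11 for Control 6h against 1h, 93 higher and 43 lower at 6 h, and 141 in the F test.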
